A study of Homo sapiens with 12 samples.

Results

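Interferon-stimulated genes are the genes that cells switch on after type I interferon binds its receptor, and 34 of them were followed here across 12 bulk RNA-seq libraries of RPE1 cells, an immortalised line of human retinal pigment epithelium. The members were taken by symbol from a list of signal transducers, sensors and antiviral effectors, and identifiers that shared a symbol were summed. The count table held 33 of the 34 among 21599 summed genes, and 26 of them had enough counts to be tested among 13340 tested genes. The expression of CMPK2 was not analysed here, but its promoters were searched. All 12 libraries came from wild-type cells, 4 in each of 3 groups. Control cells (CTRL) received DMSO, the solvent. Cells of the DOX group received 50 nM doxorubicin, a drug that poisons topoisomerase II and leaves DNA breaks. Cells of the DOX_F group received the same dose of the drug with ferrostatin-1 at 5 µM, a trap for lipid radicals that blocks ferroptosis. Exposure lasted 72 h, and ferrostatin-1 was replenished at 48 h. Every group with ferrostatin-1 also had doxorubicin, so no value shows ferrostatin-1 alone, and all values come from a single cell line.

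In the interferon response, sensors of foreign or misplaced RNA and DNA lead to interferon secretion, and the receptor's kinases then activate STAT proteins, STAT2 among them. STAT2 and IRF9 act in the complex ISGF3, which binds the interferon-stimulated response element (ISRE) in the promoters of its target genes. Another element, the gamma-activated site (GAS), serves the response to interferon-gamma. DNA damage and cellular senescence are known settings in which self DNA or RNA can reach the same sensors, and without added interferon STAT2 and IRF9 can help hold some target genes at a basal level.

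The promoters of members from 6 functional groups are shown because the element that defines the family can be read in most of them. In each group the member with the largest log2 fold change in any comparison was taken, and the 6 groups with the largest such changes and a promoter in the table were used. The sequences are RefSeq promoters on GRCh38.p14, 250 bases before to 50 bases after an annotated start, written 5′ to 3′ on the gene's strand. Capitals mark the core of the ISRE, GAAA followed by any 2 bases and GAAA again, which reads TTTC on both sides of the spacer where it lies on the other strand; in HERC5 a pair of such matches overlap. In IRF1, where no such match was found, capitals mark a GAS match, TTCNNNGAA. OAS3 is at chr12:112938224-112938523 (plus strand), HERC5 at chr4:88456869-88457168 (plus strand), DDX60 at chr4:168318703-168319002 (minus strand), IFI44 at chr1:78649539-78649838 (plus strand), IRF1 at chr5:132490724-132491023 (minus strand) and IFITM3 at chr11:320811-321110 (minus strand).
OAS3: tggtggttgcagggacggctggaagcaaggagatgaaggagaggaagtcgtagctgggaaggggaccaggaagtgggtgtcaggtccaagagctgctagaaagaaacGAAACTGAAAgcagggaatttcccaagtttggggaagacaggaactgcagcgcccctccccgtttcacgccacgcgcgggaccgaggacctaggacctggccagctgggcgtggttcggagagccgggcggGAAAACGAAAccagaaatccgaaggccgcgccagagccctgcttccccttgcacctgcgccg
HERC5: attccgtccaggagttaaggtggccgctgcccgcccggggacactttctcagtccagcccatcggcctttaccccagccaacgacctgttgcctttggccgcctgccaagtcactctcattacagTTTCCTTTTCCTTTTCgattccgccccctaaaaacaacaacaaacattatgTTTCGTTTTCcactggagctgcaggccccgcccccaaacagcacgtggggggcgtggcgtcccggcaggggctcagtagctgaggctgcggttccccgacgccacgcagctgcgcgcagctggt
DDX60: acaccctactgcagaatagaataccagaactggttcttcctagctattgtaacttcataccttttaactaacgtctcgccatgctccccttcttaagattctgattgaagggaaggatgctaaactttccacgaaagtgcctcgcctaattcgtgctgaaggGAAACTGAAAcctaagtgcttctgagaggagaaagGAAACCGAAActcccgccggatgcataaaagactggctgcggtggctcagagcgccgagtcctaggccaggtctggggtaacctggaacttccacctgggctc
IFI44: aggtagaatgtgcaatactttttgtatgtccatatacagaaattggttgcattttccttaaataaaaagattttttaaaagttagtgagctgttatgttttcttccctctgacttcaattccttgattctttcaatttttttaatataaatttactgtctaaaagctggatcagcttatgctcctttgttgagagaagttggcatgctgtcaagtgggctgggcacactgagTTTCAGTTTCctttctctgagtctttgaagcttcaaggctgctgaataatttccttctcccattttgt
IRF1: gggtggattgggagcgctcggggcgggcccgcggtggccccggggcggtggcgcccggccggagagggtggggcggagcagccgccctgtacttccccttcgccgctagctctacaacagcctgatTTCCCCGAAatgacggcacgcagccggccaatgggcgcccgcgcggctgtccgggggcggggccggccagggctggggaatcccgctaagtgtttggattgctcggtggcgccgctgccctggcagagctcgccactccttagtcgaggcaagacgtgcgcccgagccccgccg
IFITM3: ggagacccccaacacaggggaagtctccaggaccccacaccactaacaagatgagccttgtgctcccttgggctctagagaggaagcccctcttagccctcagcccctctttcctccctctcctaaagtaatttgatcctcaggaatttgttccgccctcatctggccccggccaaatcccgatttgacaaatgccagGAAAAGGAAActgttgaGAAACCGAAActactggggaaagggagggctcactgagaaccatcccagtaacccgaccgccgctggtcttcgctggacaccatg

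The first 5 of these genes were lower with doxorubicin and IFITM3 was higher, as described further on. Of the 34 members, 27 had a RefSeq promoter, 8 of them more than 1, giving 37 promoters. With both strands searched, 22 of the 37 (59.5%) held at least 1 ISRE match, against 1255 of 35116 promoters of all genes (3.57%). Counted by gene, 18 of 27 members had one (66.7%), against 1195 of 27305 genes (4.38%). The members are known interferon targets, so this share describes how the family is made up. Among members with a promoter, a match was present in 3 of 5 that rose with doxorubicin, in 7 of 9 that fell, in 5 of 8 that were not called and in 3 of 5 that were not tested. The 5 that were not tested include CMPK2, whose expression was not analysed. GAS matches occurred in 10 of the 37 promoters (27.0%), against 2689 of 35116 (7.66%). By gene, 9 of 27 members had a GAS match (33.3%), against 2560 of 27305 genes (9.38%). The matches were in 0 of 5 genes that rose, 2 of 9 that fell, 5 of 8 that were not called and 2 of 5 that were not tested. Of the 11 GAS matches, 5 overlapped an ISRE match. A match of letters does not show that a factor is bound.

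**Figure D1:**
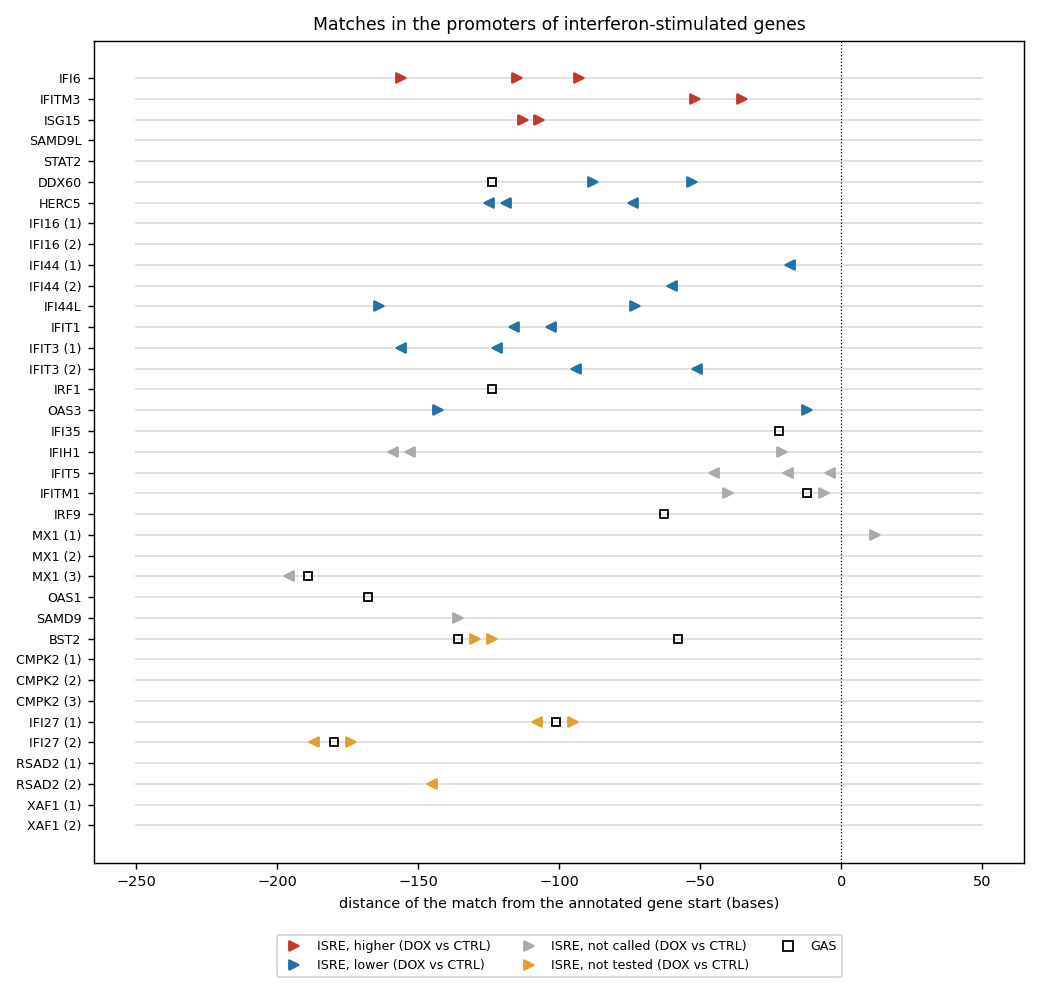
Position of ISRE matches (triangles, pointing by strand and coloured by the call in DOX against CTRL) and GAS matches (open squares) relative to the annotated start in the 37 promoters of 27 members, in bases. ISRE matches stand in 22 of the 37 promoters and occur in the genes that rose, fell, were not called and were not tested.

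Levels are CPM, counts relative to the size of the library after TMM scaling, listed for replicates 1 to 4 of a group or given as mean ± SD with n = 4. Changes are log2 fold changes ± standard error from 1 edgeR quasi-likelihood model of all 12 libraries. P-values are two-sided and adjusted over all tested genes within a comparison, and the threshold for a call was an adjusted p of 0.05. Library totals ran from 17523920 to 24879198 counts. A count of 0 allowed up to 3 counts, which is 0.124 to 0.172 CPM depending on the library, and covers counting error only. Control replicate 1 was the highest or lowest of its group for 19 of the 26 tested members (highest for 11, lowest for 8), doxorubicin replicate 4 for 17. Whether replicates were separate cultures is not stated, so the p-values measure the spread between these libraries. Of the retinal pigment epithelium markers, RPE65 was not analysed here, RLBP1, TTR, TYR and LRAT stayed at 0 to 7 counts per library, and MITF was read at 44.0 to 46.0 CPM in control, 44.1 to 46.0 with doxorubicin and 48.0 to 55.1 with both compounds. Of the 5 tested retinal pigment epithelium markers, edgeR called 1 lower and 0 higher with doxorubicin (20.0% called, against 67.1% of all tested genes). Their median log2 fold change was -0.35. With ferrostatin-1 added it called 2 higher and 0 lower (40.0%, against 5.64% of all tested genes). The keratins KRT8 and KRT18 together supplied nearly all of the epithelial marker sum, which ran from 548 to 639 CPM in control, 1082 to 1128 with doxorubicin and 1062 to 1171 with both compounds.

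Doxorubicin moved interferon-stimulated genes in both directions. It raised 7 of the 26 tested members, lowered 10 and left 9 without a call. The 17 called members are 65.4% of those tested, close to the background of 67.1% of all tested genes called in the same comparison (33.4% higher and 33.8% lower). The median log2 fold change was -0.30 over the 26 members and -0.01 over all tested genes. The 2 groups did not overlap for 16 members (61.5%), against 60.5% of all tested genes. With libraries scaled by their totals alone, the median of all genes moved to -0.15 and the split of calls from 4453 higher and 4503 lower to 3250 and 5824. Under that scaling 7 members were higher and 12 lower. In bulk RNA, fewer cells that express a gene and less RNA per cell cannot be told apart.

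Adding ferrostatin-1 to doxorubicin changed few members. Against doxorubicin alone, IFI16 was higher and IFIT2 and IFIT3 were lower, while 23 members were not called. The 3 called members are 11.5% of those tested, beside a background of 5.64% of all tested genes (2.36% higher and 3.28% lower). Without doxorubicin replicate 2, 1 member was called, IFIT3. Groups did not overlap for 3 members (11.5%), against 11.2% of all tested genes. Against control, cells with both compounds had 6 members higher and 11 lower, again 65.4% of those tested, beside 67.2% of all tested genes (33.0% higher and 34.2% lower). With library totals alone, that comparison called 3237 genes higher and 6012 lower, against 4407 and 4563, and 6 members higher and 16 lower. Groups stood apart in that comparison for 16 members, or 61.5%, against 59.5% of all tested genes. The comparisons share libraries and are not independent of each other. Over the 3 comparisons, 6 members were higher than control in both treated groups and 8 were lower in both, with no call between the treated groups. A further 7 were never called. The share of all tested genes with each of these patterns was not counted. Of all tested genes 67.1% and 67.2% were called against control and 5.64% between the treated groups, so these counts describe the members only.

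**Figure D2:**
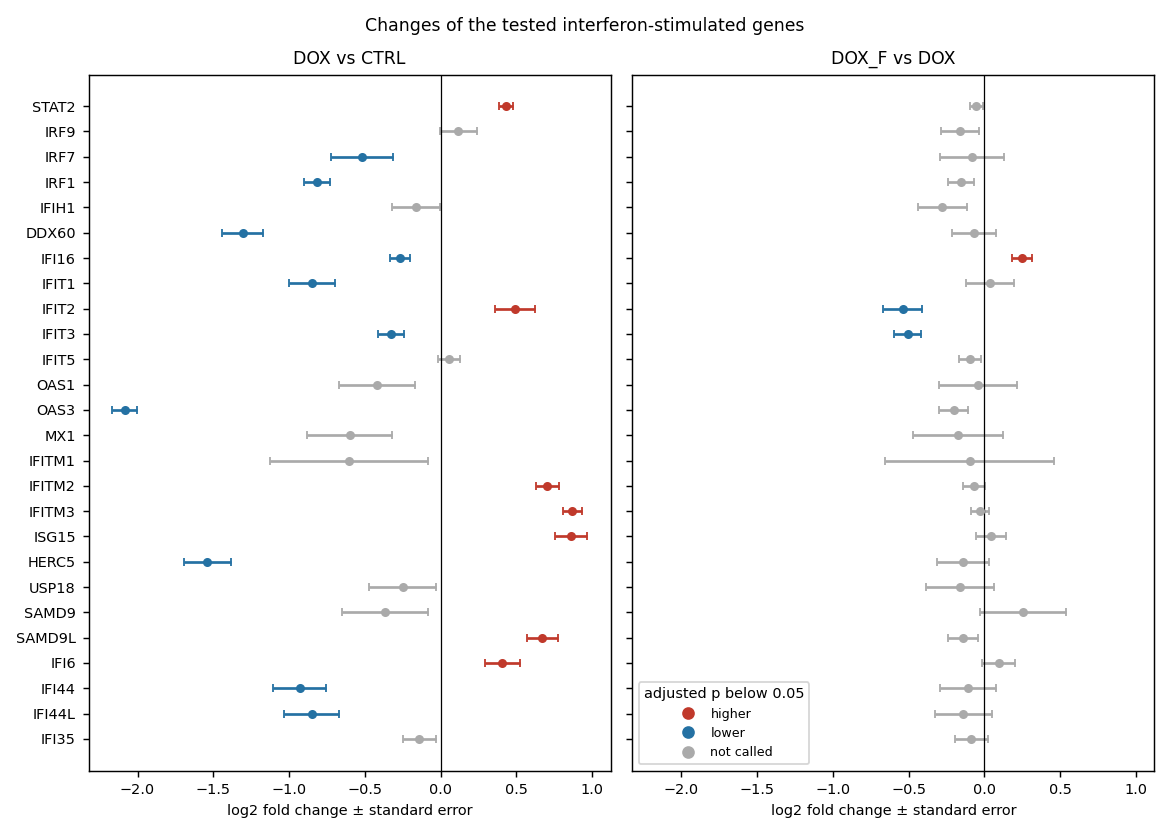
Log2 fold change ± standard error (edgeR, n = 4 libraries per group) of the 26 tested members, for DOX against CTRL on the left and DOX_F against DOX on the right, coloured by whether the adjusted p was below 0.05. With doxorubicin 7 members lie to the right and 10 to the left of 0 with a call, and with ferrostatin-1 added 3 carry a call.

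Among the components of the interferon-activated complex, STAT2 rose and IRF9 was not called. STAT2, the transactivating part of ISGF3, was read at 69.5, 68.8, 68.2 and 69.5 CPM in control, 92.8, 91.1, 89.7 and 98.9 with doxorubicin and 93.1, 88.9, 90.4 and 86.6 with both compounds. Every treated library lay above every control library, by a gap far larger than the control spread. STAT2 rose with doxorubicin (log2 fold change 0.43 ± 0.046, adjusted p = 8.21e-08), and its value with ferrostatin-1 added was -0.05 ± 0.045, adjusted p = 0.652. IRF9, the DNA-binding part of ISGF3, was read at 8.84, 12.1, 14.2 and 9.71 CPM in control, 12.0, 12.0, 12.1 and 12.6 with doxorubicin and 10.2, 12.9, 10.4 and 10.1 with both compounds. All 3 groups overlapped, and the control libraries spread more widely than the doxorubicin libraries. Its log2 fold change was 0.12 ± 0.12, adjusted p = 0.41 for doxorubicin and -0.16 ± 0.12, adjusted p = 0.591 for ferrostatin-1.

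IRF9 counts were divided between 2 identifiers that carry the same symbol. ENSG00000285048.2, which has no position in GENCODE 29, took 51.1% to 84.9% of the IRF9 counts in control libraries, 70.8% to 94.2% with doxorubicin and 72.4% to 94.3% with both compounds. The other, ENSG00000213928.10, lies on chromosome 14. How the reads were split between them varied from library to library inside every group, and the sum was used for the test. IRF7 and IFI27 were split too, with 84.8% to 100% of IRF7 counts under ENSG00000276561.4 in every library.

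**Figure D3:**
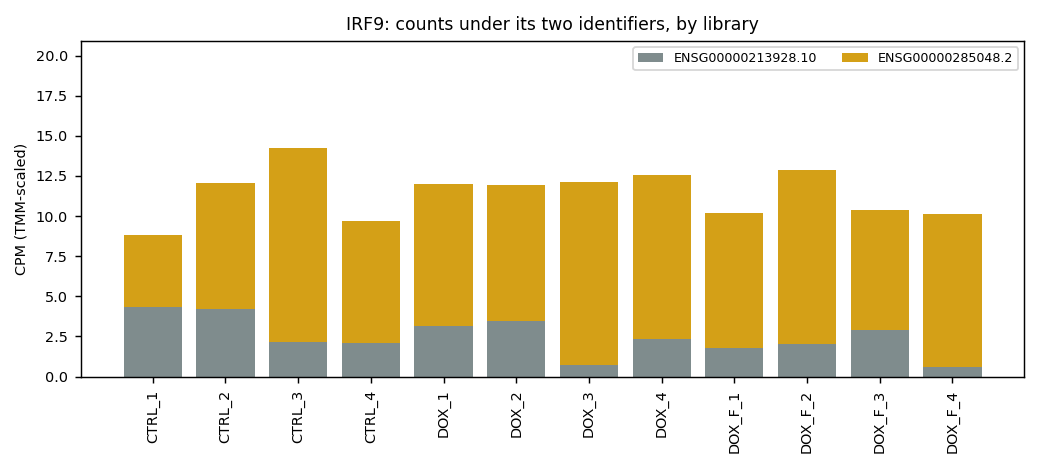
TMM-scaled CPM of IRF9 in each of the 12 libraries, stacked by its 2 identifiers. The summed level lies between 8.84 and 14.2 CPM while the share of ENSG00000285048.2 ranges from 51.1% to 94.3%.

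The transcription factors IRF1 and IRF7 fell. IRF1, an activator that responds to interferon-gamma and to damage signals, was read at 26.1, 24.3, 24.2 and 23.9 CPM in control, 13.7, 12.3, 13.4 and 16.8 with doxorubicin and 13.2, 12.9, 11.5 and 12.5 with both compounds. The 4 control libraries sat above all 8 treated ones. Doxorubicin lowered it (log2 fold change -0.82 ± 0.083, adjusted p = 4.38e-08), and the change with ferrostatin-1 added was -0.16 ± 0.088, adjusted p = 0.419. IRF7, the amplifier of interferon-alpha transcription, had 22 to 56 counts per library, or 2.78, 2.67, 2.01 and 2.54 CPM in control, 1.24, 2.04, 1.77 and 1.90 with doxorubicin and 1.61, 1.74, 1.64 and 1.59 with both compounds. Doxorubicin replicate 2 lay just above the lowest control, so the groups overlapped. IRF7 fell with doxorubicin (log2 fold change -0.52 ± 0.20, adjusted p = 0.0314), but this call was lost without the low-count filter (adjusted p = 0.0808) and when any of control replicates 1, 2 and 4 and doxorubicin replicates 1 and 3 was left out (0.0572 to 0.120). Over all alternatives its adjusted p ran from 0.00789 to 0.12. With both compounds all 4 libraries were below control (log2 fold change -0.60 ± 0.20, adjusted p = 0.0132), and ferrostatin-1 gave -0.08 ± 0.21, adjusted p = 0.908.

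The nucleic acid sensors among the members fell or were not called. DDX60, a helicase that assists RNA sensing, was read at 14.5, 12.5, 12.2 and 13.5 CPM in control, 5.02, 5.48, 5.79 and 5.00 with doxorubicin and 4.42, 3.93, 6.87 and 5.18 with both compounds. Treated libraries held at most 6.87 CPM and control libraries at least 12.2 CPM, with no overlap. DDX60 fell with doxorubicin (log2 fold change -1.31 ± 0.13, adjusted p = 4.75e-08), and ferrostatin-1 gave -0.07 ± 0.14, adjusted p = 0.889. IFIH1, which encodes the long double-stranded RNA sensor MDA5, was read at 4.27, 4.75, 5.69 and 3.46 CPM in control, 3.95, 3.54, 4.40 and 4.37 with doxorubicin and 3.39, 3.17, 3.74 and 3.10 with both compounds. Its groups overlapped, with control replicates 1 and 4 inside or below the range of the doxorubicin libraries. IFIH1 was not called for doxorubicin (log2 fold change -0.16 ± 0.16, adjusted p = 0.374) or for ferrostatin-1 (-0.28 ± 0.16, adjusted p = 0.44). Both compounds against control gave -0.44 ± 0.16, adjusted p = 0.0195, which missed the threshold when control replicate 3 was left out (adjusted p = 0.101), when DOX_F replicate 4 was (0.0533) and when libraries were thinned to equal size (0.0626), with a range over the alternatives of 0.00294 to 0.101.

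IFI16, a nuclear sensor of double-stranded DNA, was the member that doxorubicin lowered and that was higher again with ferrostatin-1. Its level was 48.9, 41.6, 45.8 and 43.2 CPM in control, 34.9, 36.3, 39.9 and 37.9 with doxorubicin and 42.3, 42.3, 48.9 and 43.7 with both compounds. The doxorubicin libraries were the lowest 4 of the 12, and the libraries with both compounds stood at the level of the controls. IFI16 fell with doxorubicin (log2 fold change -0.27 ± 0.065, adjusted p = 0.00122) and rose with ferrostatin-1 added (0.25 ± 0.065, adjusted p = 0.0271). Against control, both compounds gave -0.02 ± 0.064, adjusted p = 0.781. The ferrostatin-1 call was lost without doxorubicin replicate 1 (adjusted p = 0.111), 2 (0.0955) or 4 (0.0512) and without DOX_F replicate 3 (0.0925) or 4 (0.0557), and its adjusted p ran from 0.00721 to 0.111 over all alternatives.

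The 4 IFIT genes, whose proteins bind foreign RNA ends and block their translation, lie side by side on chromosome 10 (GRCh38, GENCODE 29), IFIT2 from 89283694 to 89309276, IFIT3 from 89327894 to 89340971, IFIT1 from 89392546 to 89406486 and IFIT5 from 89414586 to 89421001. Doxorubicin moved them in different directions. IFIT2 was read at 5.56, 6.08, 4.63 and 4.88 CPM in control, 7.62, 7.92, 7.56 and 6.61 with doxorubicin and 4.96, 4.09, 5.33 and 6.02 with both compounds. All 4 doxorubicin libraries stood above control, and the libraries with both compounds overlapped the controls. IFIT2 rose with doxorubicin (log2 fold change 0.49 ± 0.13, adjusted p = 0.00269) and fell with ferrostatin-1 added (-0.54 ± 0.13, adjusted p = 0.016). The fall was lost without doxorubicin replicate 2 (adjusted p = 0.0607) or DOX_F replicate 2 (0.0539), with a range of 0.00648 to 0.0607 over the alternatives.

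IFIT3, which stabilises IFIT1 on RNA, was read at 19.2, 21.7, 21.1 and 19.0 CPM in control, 15.6, 18.9, 15.6 and 14.2 with doxorubicin and 11.8, 11.2, 11.9 and 10.5 with both compounds. The 3 groups did not overlap, though doxorubicin replicate 2 came close to the lowest control at 18.9 against 19.0 CPM. IFIT3 fell with doxorubicin (log2 fold change -0.33 ± 0.085, adjusted p = 0.00211) and again with ferrostatin-1 added (-0.51 ± 0.089, adjusted p = 0.00102). It was the member whose ferrostatin-1 call held under all 20 alternatives, with adjusted p from 4.12e-05 to 0.00617. IFIT1, which recognises RNA caps without ribose methylation, was read at 8.64, 9.17, 8.36 and 8.34 CPM in control, 4.57, 3.74, 5.26 and 5.63 with doxorubicin and 3.68, 4.60, 6.51 and 4.96 with both compounds. Controls were above every treated library and the treated groups overlapped. IFIT1 fell with doxorubicin (log2 fold change -0.85 ± 0.15, adjusted p = 6.72e-05), and ferrostatin-1 gave 0.04 ± 0.16, adjusted p = 0.948. IFIT5 overlapped between all groups at 25.2 to 32.0 CPM and was not called (0.06 ± 0.071, adjusted p = 0.497 for doxorubicin). Differences between neighbouring genes were not tested.

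OAS3 had the largest change of any member. It encodes an oligoadenylate synthetase, an enzyme that senses double-stranded RNA and activates RNase L, and lies on chromosome 12 from 112938352 to 112973249 between OAS1 and OAS2. OAS3 was read at 40.1, 35.9, 34.6 and 35.4 CPM in control, 10.0, 8.92, 7.78 and 7.64 with doxorubicin and 7.48, 7.05, 7.64 and 7.71 with both compounds. The lowest control library stood at 34.6 CPM and the highest treated library at 10.0, so the groups were far apart. OAS3 fell with doxorubicin (log2 fold change -2.08 ± 0.083, adjusted p = 2.03e-14), and ferrostatin-1 gave -0.20 ± 0.10, adjusted p = 0.303. OAS1 was read at 4.52, 2.45, 2.05 and 2.00 CPM in control, 1.69, 2.24, 1.82 and 2.47 with doxorubicin and 2.11, 1.69, 2.20 and 1.99 with both compounds. Control replicate 1 stood above the other 11 libraries, which overlapped. OAS1 was not called (-0.42 ± 0.25, adjusted p = 0.146 for doxorubicin and -0.04 ± 0.26, adjusted p = 0.964 for ferrostatin-1). OAS2 at 1 to 9 counts per library and OASL at 0 to 11 were too low to test.

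Of the MX GTPases, which trap viral nucleocapsids, MX2 could not be tested at 0 to 4 counts per library. MX1 was read at 1.19, 1.17, 0.956 and 0.976 CPM in control, 0.790, 0.648, 0.536 and 0.862 with doxorubicin and 0.785, 0.511, 0.615 and 0.576 with both compounds. The control libraries were above all 8 treated libraries, at low counts throughout. MX1 missed the threshold for doxorubicin (log2 fold change -0.60 ± 0.28, adjusted p = 0.0664). With libraries scaled by totals alone its adjusted p was 0.0256, and over the alternatives it ran from 0.0256 to 0.221. Both compounds against control gave -0.77 ± 0.28, adjusted p = 0.0198, and this call was lost with no low-count filter (adjusted p = 0.0961) and without control replicate 1 (0.0577) or 2 (0.0510) or DOX_F replicate 2 (0.0576) or 4 (0.0515), with a range of 0.00676 to 0.0961.

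Of the 3 IFITM genes, whose proteins sit in membranes and block the fusion of entering viruses, IFITM2 and IFITM3 rose and IFITM1 was not called. IFITM3 was read at 43.4, 52.0, 48.8 and 52.3 CPM in control, 92.5, 92.4, 83.7 and 90.8 with doxorubicin and 83.6, 96.5, 85.6 and 86.7 with both compounds. The highest control library was well below the lowest treated one. IFITM3 rose with doxorubicin (log2 fold change 0.87 ± 0.063, adjusted p = 2.92e-10), and ferrostatin-1 gave -0.03 ± 0.061, adjusted p = 0.887. IFITM2 was read at 25.2, 31.5, 30.6 and 31.5 CPM in control, 45.0, 47.8, 50.0 and 50.8 with doxorubicin and 46.8, 51.3, 41.7 and 44.5 with both compounds. It showed the same separation, with control replicate 1 below the rest of its group. IFITM2 rose with doxorubicin (log2 fold change 0.71 ± 0.076, adjusted p = 8.82e-08), and ferrostatin-1 gave -0.07 ± 0.073, adjusted p = 0.724. IFITM1, at 0.11 to 0.83 CPM, overlapped between all groups and was not called (-0.61 ± 0.52, adjusted p = 0.315). The 3 genes are close paralogs on chromosome 11, and the IFITM2 model from 307631 to 315272 overlaps that of IFITM1 from 313506 to 315272 on the same strand, so the division of reads among them is uncertain.

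ISG15 and the ligase that attaches it moved in opposite directions. ISG15, a ubiquitin-like modifier, was read at 7.64, 10.2, 10.1 and 10.6 CPM in control, 17.5, 15.8, 17.3 and 19.5 with doxorubicin and 18.1, 18.6, 15.2 and 20.0 with both compounds. Control replicate 1 was the lowest library, and no treated library reached down to the controls. ISG15 rose with doxorubicin (log2 fold change 0.86 ± 0.11, adjusted p = 5.82e-07), and ferrostatin-1 gave 0.04 ± 0.10, adjusted p = 0.898. HERC5, the main ISG15 ligase in human cells, was read at 7.00, 8.16, 7.21 and 8.49 CPM in control, 2.54, 2.99, 2.31 and 2.76 with doxorubicin and 2.89, 1.84, 2.05 and 2.75 with both compounds. Control libraries were above all treated libraries, and the treated groups overlapped. HERC5 fell with doxorubicin (log2 fold change -1.54 ± 0.16, adjusted p = 4.08e-08), and ferrostatin-1 gave -0.14 ± 0.17, adjusted p = 0.777. USP18, which removes ISG15 and also restrains the interferon receptor, lay at 1.12 to 2.23 CPM in overlapping groups and was not called (-0.25 ± 0.22, adjusted p = 0.326).

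SAMD9L and SAMD9, neighbouring genes on chromosome 7 encode proteins that restrict poxvirus translation. SAMD9L was read at 14.1, 12.5, 11.5 and 9.17 CPM in control, 18.7, 20.1, 16.9 and 19.5 with doxorubicin and 16.6, 17.1, 18.6 and 16.0 with both compounds. The treated libraries were all above the controls. SAMD9L rose with doxorubicin (log2 fold change 0.67 ± 0.10, adjusted p = 9.09e-06), and ferrostatin-1 gave -0.14 ± 0.10, adjusted p = 0.536. SAMD9 was found at 0.698 to 1.94 CPM in overlapping groups, with -0.37 ± 0.28, adjusted p = 0.26 for doxorubicin and no call. IFI6, a small membrane protein known to limit apoptosis and flavivirus replication, was read at 10.0, 9.49, 10.9 and 12.5 CPM in control, 12.5, 13.5, 14.5 and 16.6 with doxorubicin and 13.4, 16.5, 13.5 and 17.6 with both compounds. The lowest doxorubicin library and the highest control library were level at 12.5 CPM, so those groups met, while the libraries with both compounds were all above control. IFI6 rose with doxorubicin (log2 fold change 0.41 ± 0.11, adjusted p = 0.00377), and ferrostatin-1 gave 0.09 ± 0.11, adjusted p = 0.766.

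IFI44L and IFI44, neighbours on chromosome 1 that encode related GTP-binding-like proteins, both fell. IFI44 was read at 3.33, 3.79, 3.34 and 4.29 CPM in control, 1.81, 2.24, 1.82 and 1.84 with doxorubicin and 1.94, 1.84, 1.74 and 1.64 with both compounds. Controls were above all treated libraries, at 2.24 CPM or less in the latter. IFI44 fell with doxorubicin (log2 fold change -0.93 ± 0.18, adjusted p = 0.000109), and ferrostatin-1 gave -0.11 ± 0.19, adjusted p = 0.854. IFI44L was read at 5.66, 6.13, 7.02 and 4.44 CPM in control, 2.71, 4.39, 2.57 and 3.16 with doxorubicin and 2.73, 2.86, 3.33 and 2.79 with both compounds. Here the lowest control, replicate 4, was just above the highest doxorubicin library, replicate 2. IFI44L fell with doxorubicin (log2 fold change -0.85 ± 0.18, adjusted p = 0.000326), and ferrostatin-1 gave -0.14 ± 0.19, adjusted p = 0.803. IFI35, at 9.08 to 13.6 CPM, was not called (-0.14 ± 0.11, adjusted p = 0.26 for doxorubicin). Without control replicate 1 it was lower with doxorubicin (adjusted p = 0.0231) and with both compounds against control (0.00306), and with library totals alone those values were 0.0259 and 0.00417. Its adjusted p ran from 0.0231 to 0.63 for doxorubicin and from 0.00306 to 0.246 for both compounds against control.

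**Figure D4:**
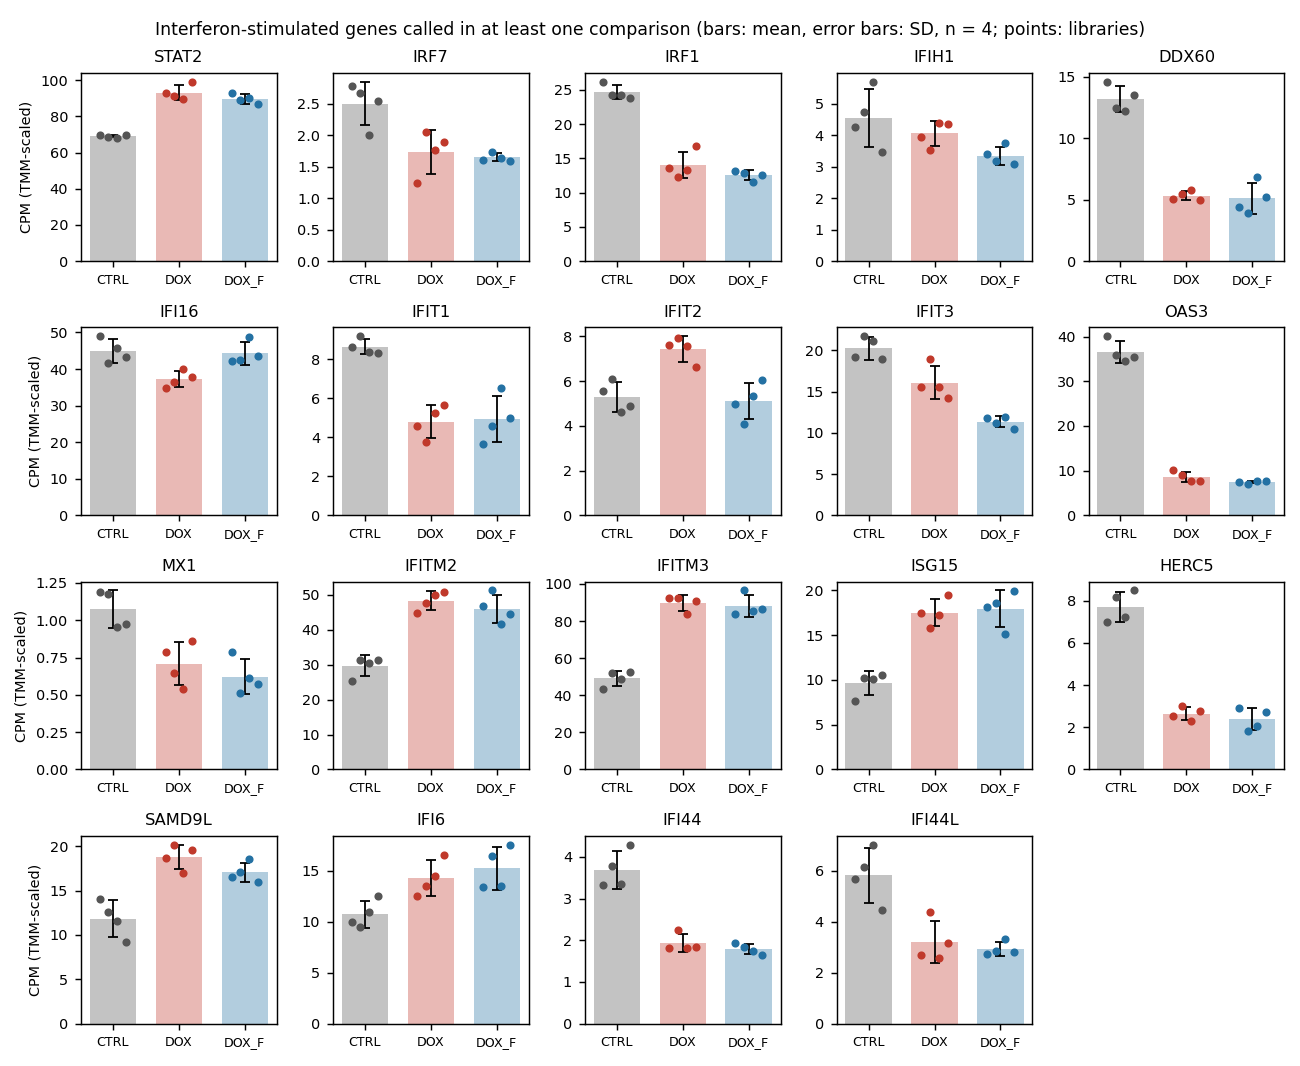
TMM-scaled CPM of the 19 members called in at least 1 comparison, with 1 point per library, bars for the group mean and error bars for the SD (n = 4). The doxorubicin libraries lie below control for OAS3, HERC5 and DDX60 and above it for IFITM3, ISG15 and STAT2, and for IFI16 and IFIT2 the libraries with both compounds overlap the controls.

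The remaining members were barely detected. RSAD2, which encodes the antiviral enzyme viperin, had 0 or 1 count per library. BST2, the tetherin that holds budding virions, had 0 to 7, XAF1, a pro-apoptotic protein, 1 to 15, and IFI27 2 to 15. These and OAS2, OASL and MX2 make up the 7 untested members, several of which are widely used as markers of an interferon response. Per kilobase of merged exons, the control means ranked IFITM3 first at 36.5 CPM per kb, followed by IFITM2 at 19.2, IFI6 at 12.4, STAT2 at 11.3, ISG15 at 10.2 and IFI16 at 8.48. OAS3 stood at 4.42 and IRF1 at 3.16 CPM per kb on this scale. Summed over all members, the level was 417 to 420 CPM in control, 440 to 464 with doxorubicin and 428 to 441 with both compounds. Abundant members weigh most in this sum. With doxorubicin the mean of IFITM3 went from 49.2 to 89.8 CPM and that of STAT2 from 69.0 to 93.1, while OAS3 went from 36.5 to 8.59. By calls, 7 members rose and 10 fell, as given above. Of 8 immune cell markers 5 were in the table, of which PTPRC had 0 to 12 counts per library, CD14 0 to 6 and LILRA4 0 to 7, while CSF1R and CD68 were tested. CSF1R, a macrophage growth factor receptor, fell from 3.43 ± 0.545 to 1.19 ± 0.507 CPM with doxorubicin (log2 fold change -1.53 ± 0.26, adjusted p = 3.22e-05) and stood at 1.15 ± 0.198 CPM with both compounds. CD68, a lysosomal protein also found outside macrophages, made up most of the immune marker sum, which was 63.7 to 73.8 CPM in control, 71.5 to 79.2 with doxorubicin and 77.2 to 88.8 with both compounds. The endothelial marker sum was 3.87 to 5.33, 1.88 to 2.81 and 1.59 to 2.96 CPM in the same groups, and the neuronal one 407 to 477, 512 to 543 and 595 to 653 CPM. These sums do not give the direction of each marker. Doxorubicin raised 1 and lowered 1 of the 2 tested endothelial markers (100% called, against 67.1% of all tested genes). It raised 1 and lowered 0 of the 3 tested neuronal ones (33.3% called, against the same 67.1%). With ferrostatin-1 added, 1 neuronal marker was higher and 1 lower (66.7% called, against 5.64% of all tested genes). The part of these markers in the results was not tested.

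Few interferon genes were detected. Of 17 listed ligands 4 were in the table and 2 were tested. IFNB1, the beta interferon, had 0 to 2 counts per library. IFNA1, 1 of a family of near-identical genes, had 0.342 ± 0.175 CPM in control and 0.710 ± 0.198 with doxorubicin in overlapping groups. Its call for doxorubicin (log2 fold change 1.07 ± 0.45, adjusted p = 0.0415) was lost under 9 of the 20 alternatives, DESeq2 among them (adjusted p = 0.0546), with a range of 0.0174 to 0.118. IFNE, an epithelial interferon, was read at 5.19 ± 0.992, 4.25 ± 1.07 and 3.15 ± 0.783 CPM in the 3 groups and was not called for doxorubicin (-0.29 ± 0.20, adjusted p = 0.216), while both compounds against control gave -0.71 ± 0.21, adjusted p = 0.00478.

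Of the 6 interferon receptor chains, doxorubicin raised 3 and lowered 1, or 3 and 3 with library totals alone. The called share was 66.7%, against 67.1% of all tested genes. With ferrostatin-1 added edgeR called 0 of them, DESeq2 0, and 0 had an unadjusted p below 0.05. IFNAR1, a chain of the type I receptor, went from 84.7 ± 5.23 to 104 ± 1.50 CPM, a log2 fold change of 0.30 ± 0.054, adjusted p = 7.52e-05. IL10RB, shared by the type III receptor, rose from 19.6 ± 1.02 to 33.1 ± 1.37 CPM (0.76 ± 0.061, adjusted p = 1.33e-09). IFNGR1, a chain of the interferon-gamma receptor, rose from 13.4 ± 0.590 to 16.5 ± 0.591 CPM (0.31 ± 0.071, adjusted p = 0.000722). IFNGR2, its other chain, was not called (-0.14 ± 0.068, adjusted p = 0.0694), though its doxorubicin libraries all lay below control. With library totals alone IFNGR2 was lower (adjusted p = 0.00109). IFNLR1, the other type III chain, fell from 4.30 ± 0.515 to 2.58 ± 0.737 CPM (-0.73 ± 0.19, adjusted p = 0.00223). IFNAR2 was not called for doxorubicin (-0.10 ± 0.068, adjusted p = 0.186), but was lower with library totals alone (adjusted p = 0.00413). Its adjusted p ran from 0.00413 to 0.37 over the alternatives. Both compounds against control gave -0.24 ± 0.068 for IFNAR2, adjusted p = 0.00374, in overlapping groups, and this call held under all 20 alternatives.

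Other signalling genes behind the receptors changed with doxorubicin in both directions. STAT3, which serves many cytokines, rose from 87.9 ± 4.40 to 135 ± 6.28 CPM, a log2 fold change of 0.62 ± 0.05, adjusted p = 1.58e-09. The receptor kinases JAK2 and TYK2 fell (-0.64 ± 0.079, adjusted p = 5.63e-07 and -0.24 ± 0.057, adjusted p = 0.00104). JAK1, the kinase shared by the interferon receptors, was not called (0.06 ± 0.052, adjusted p = 0.283).

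Of the 10 tested genes of RNA and DNA sensing outside the members, doxorubicin raised 4 and lowered 1 (50.0% called, against 67.1% of all tested genes). Scaled by library totals alone, 4 were higher and 4 lower. RIGI, the sensor of short RNA ends, rose from 18.2 ± 1.84 to 39.0 ± 5.32 CPM, a log2 fold change of 1.10 ± 0.10, adjusted p = 4.82e-09, and was at 39.8 ± 3.72 CPM with ferrostatin-1 added. MAVS, the mitochondrial adaptor of RNA sensing, rose from 217 ± 18.1 to 289 ± 13.6 CPM (0.41 ± 0.053, adjusted p = 1.05e-06). STING1, the adaptor of cytosolic DNA sensing, rose from 36.7 ± 1.91 to 46.2 ± 3.07 CPM (0.33 ± 0.058, adjusted p = 5.43e-05) and fell to 39.0 ± 1.18 CPM with ferrostatin-1 added (-0.24 ± 0.058, adjusted p = 0.0145). The STING1 fall was lost without doxorubicin replicate 4 (adjusted p = 0.0605), with a range of 0.00602 to 0.0605 over the alternatives.

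**Figure D5:**
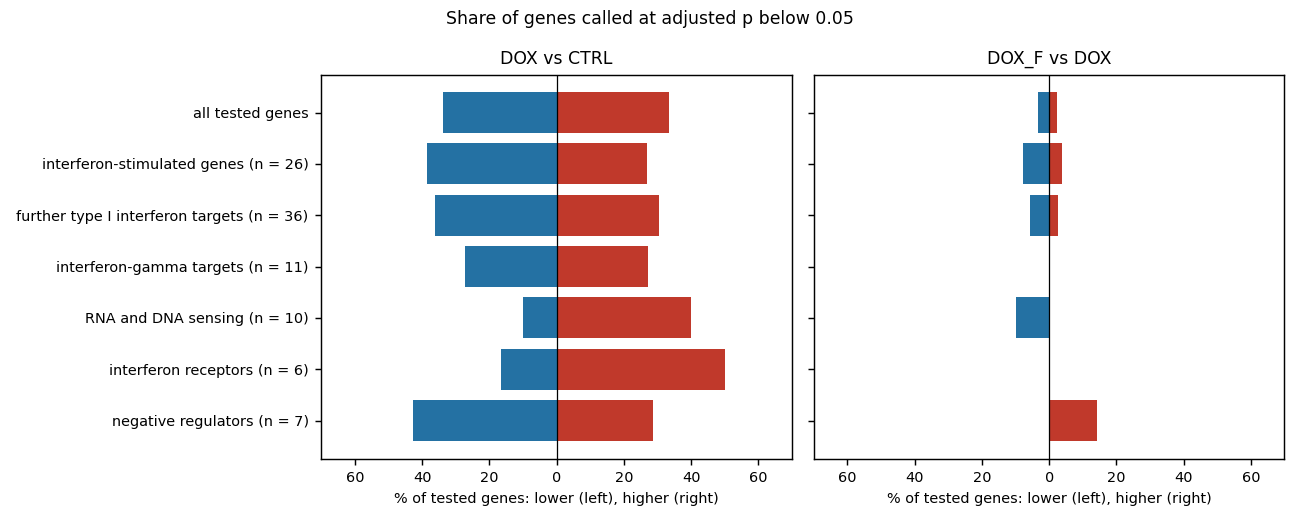
Share of tested genes called lower (left of 0) and higher (right of 0), in percent, for all tested genes, the 26 tested members and 5 lists of related genes, in DOX against CTRL and in DOX_F against DOX. With doxorubicin the members' 65.4% called stands beside 67.1% of all tested genes, and with ferrostatin-1 added 11.5% stands beside 5.64%.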

How the data were processed

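Bulk RNA libraries, 12 in all and 4 per group, were made from RPE1 cells with a kit that keeps no strand information and read from both ends, per the labels' protocols. The deposited table holds counts per gene identifier and library, whole numbers with different totals per library. Salmon, DESeq2 and the build GRCh38 appear in the submitters' processing notes, without versions or roles. How the counts became whole numbers is not given in the sources used here. 0 count columns were left without a group. Reads from overlapping genes of opposite strands cannot be told apart, and limits set for a count of 0 cover counting error only.

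Counts of identifiers with the same symbol were summed (618 symbols had several, 1935 identifiers had none). From the deposited counts, edgeR's filterByExpr (minimum count 10, minimum total 15) kept 13340 genes, and 1 edgeR quasi-likelihood model with TMM scaling and a mean for each group took in the 12 libraries, with Benjamini-Hochberg adjustment over all tested genes. Standard errors were derived from the test, as the size of the log2 fold change over the root of its F value. The scripts were tested on simulated data in which few genes changed. That simulation does not cover scaling where most genes are called. R 4.3.3 ran edgeR 4.0.16, limma 3.58.1 and DESeq2 1.42.0, with Python 3.11.15. Positions are from GENCODE 29 on GRCh38, found for 33 of 36 member identifiers. Promoters are from RefSeq, GRCh38.p14.

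The members and lists were chosen with earlier results of these data known. Genes were named, with the value of every library, where they were members called in at least 1 comparison or STAT2, IRF9, IRF7 or IRF1, and related genes were named by their p-values within each list. 1 gene of the related lists is not reported here. A side column of the table with 71 symbols, 0 of them members, was not used. The alternatives were RLE scaling, library totals alone, no low-count filter, DESeq2, the identifier with the most counts, thinning to equal size, 2 groups at a time, a replicate block, and leaving out each library.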

Additional observations from a re-analysis of the deposited data

Results flagged for a closer look

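With 26 tested members in 3 groups, 78 sets of 4 libraries were examined for a library far from the rest of its group, and 4 were flagged. Chance flags about 1 in 20 such sets. IRF9 was 12.9 CPM in DOX_F replicate 2, against 10.1 to 10.4 CPM in the other libraries of that group. IFITM2 was 25.2 CPM in control replicate 1, against 30.6 to 31.5 CPM in the other controls. ISG15 was 7.64 CPM in the same control library, against 10.1 to 10.6 CPM. IFI44 was 2.24 CPM in doxorubicin replicate 2, against 1.81 to 1.84 CPM.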

How the results depend on the processing

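Of the 78 results for single members (26 members in 3 comparisons), 37 were called, and 32 of these kept their call and direction under all 20 alternatives. The other 5 were IRF7 for doxorubicin, IFI16 and IFIT2 for ferrostatin-1, and IFIH1 and MX1 for both compounds against control, each lost under the settings given with its values above. Of 41 results without a call 7 gained one under at least 1 alternative. A change of direction was counted only where the main fit or the alternative made a call, and 0 results had one. Some results without a call did change sign, such as IRF9 for doxorubicin (log2 fold change from -0.02 to 0.28 over the alternatives). IFITM1 gave no value for ferrostatin-1 in the fit of only the 2 groups compared. Outside the leave-outs, the number of called members ran from 16 to 19 for doxorubicin, stayed at 3 for ferrostatin-1 and ran from 16 to 22 for both compounds against control. Leaving out 1 library gave 16 to 17, 1 to 3 and 15 to 17, the lowest of 1 for ferrostatin-1 without doxorubicin replicate 2. Over all genes, leaving out 1 library gave 8529 to 9026 calls for doxorubicin, 529 to 915 for ferrostatin-1 and 8621 to 9015 for both compounds against control. With library totals alone, IFI16, IFIT5, OAS1 and USP18 were also lower with both compounds than in control. The numbers 1 to 4 in the column names are not stated to pair the libraries. Deviations from the group means correlated at r = -0.104 to 0.0976 in the 12 pairs of libraries that share a number, and at -0.102 to 0.142 in the 36 pairs that do not. A replicate block on these numbers gave 8804, 634 and 8878 called genes in the 3 comparisons and 17, 3 and 17 called members. Members at a few counts per library are limited by depth, and the 7 untested members were too low to test at this depth.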

Other observations

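A further 36 tested type I interferon targets outside the members were also called in both directions. Doxorubicin raised 11 and lowered 13 of them (66.7% called, against 67.1% of all tested genes), or 9 and 18 with library totals alone. Their median log2 fold change was -0.07. TRIM22, a ubiquitin ligase that restricts retroviral transcription, rose from 28.2 ± 1.93 to 106 ± 2.75 CPM, a log2 fold change of 1.90 ± 0.056, adjusted p = 1.43e-16, and was 115 ± 5.17 CPM with ferrostatin-1 added. SP110, a nuclear body protein, rose from 21.3 ± 1.34 to 41.0 ± 1.71 CPM (0.94 ± 0.061, adjusted p = 4.43e-11) and was higher again with ferrostatin-1 at 48.0 ± 2.14 CPM (0.23 ± 0.057, adjusted p = 0.0194). That last call was lost without doxorubicin replicate 1 (adjusted p = 0.0567) or 3 (0.0779) or DOX_F replicate 4 (0.0749), and ran from 0.00482 to 0.0779 over the alternatives. SLFN5 and APOL2 rose with doxorubicin as well (0.98 ± 0.072, adjusted p = 3.25e-10 and 0.89 ± 0.063, adjusted p = 1.58e-10). These 4 were named by their p-values, and genes that fell are given here after their values were seen. APOL6 fell from 10.6 ± 0.783 to 3.87 ± 0.771 CPM (-1.44 ± 0.14, adjusted p = 1.34e-08), PLSCR1 from 20.3 ± 2.33 to 8.66 ± 0.966 CPM (-1.23 ± 0.10, adjusted p = 2.35e-09) and NMI from 12.5 ± 0.571 to 5.92 ± 0.698 CPM (-1.08 ± 0.11, adjusted p = 2.27e-08). Ferrostatin-1 raised 1 of the 36 and lowered 2 (8.33% called, against 5.64% of all tested genes). DESeq2 called 2, and between 0 and 1 were called when any of doxorubicin replicates 1, 2 or 3 or DOX_F replicates 1, 2 or 4 was left out.

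Of 11 tested interferon-gamma targets, doxorubicin raised 3 and lowered 3 (54.5% called, against 67.1% of all tested genes), or 1 and 3 with library totals alone. With ferrostatin-1 added edgeR called 0 of them and DESeq2 0, and 1 had an unadjusted p below 0.05. CIITA, the switch for MHC class II genes, fell from 6.99 ± 1.06 to 4.16 ± 0.530 CPM, a log2 fold change of -0.75 ± 0.15, adjusted p = 0.000158, and CD274, the checkpoint ligand PD-L1, fell from 23.0 ± 1.70 to 17.3 ± 0.320 CPM (-0.41 ± 0.081, adjusted p = 0.00016). GBP3, a guanylate-binding protein, rose from 28.0 ± 0.863 to 36.5 ± 1.72 CPM (0.38 ± 0.07, adjusted p = 7.64e-05). Of 7 tested negative regulators of the pathway, doxorubicin raised 2 and lowered 3 (71.4% called, against 67.1% of all tested genes), or 1 and 4 with library totals alone. SOCS3, a feedback inhibitor of JAK kinases, fell from 26.4 ± 0.703 to 20.0 ± 1.41 CPM with doxorubicin (-0.40 ± 0.062, adjusted p = 1.06e-05) and was 29.8 ± 0.992 CPM with ferrostatin-1 added, higher than with doxorubicin alone (0.58 ± 0.061, adjusted p = 2.88e-06). PTPN1, a phosphatase of JAK kinases, rose from 107 ± 2.12 to 150 ± 7.01 CPM (0.49 ± 0.044, adjusted p = 5.79e-09).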
